A study of Mus musculus with 36 samples.

Results

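The Dex response of mouse embryonic fibroblasts (MEFs) that carry only the dimerization mutant GRD of the glucocorticoid receptor (GR) is described here from 6 of 36 RNA-seq libraries, 3 of GRD/D cells with vehicle and 3 of GRD/D cells with 1 µM dexamethasone (Dex), a synthetic glucocorticoid, for 5 h. The libraries were chosen by their genotype and treatment in the sample labels and all 6 belong to run 1 of the experiment. GRD is the exchange of an alanine for a threonine in the D-loop of the DNA-binding domain, where 2 receptor molecules touch when they sit on DNA as a pair, and both alleles of Nr3c1, the receptor's own gene, carried it in these cells. The comparison groups of the same run were GRwt/wt cells with the intact receptor and GRko/ko cells without a functional one, with 3 vehicle and 3 Dex libraries each at the same dose and time. All 3 genotypes are labelled FVB/NJ, although the study's methods name a different strain for the heterozygous parents of its GR-null mice. MEFs are primary cultures grown out of whole embryos rather than a cell line, so other cell types can be present. The series states that the cultures of a genotype came from different mice, but no source ties a library number to a culture.

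GR is a nuclear receptor that stays in the cytoplasm with chaperones until it binds a glucocorticoid, and then enters the nucleus. It raises many genes by binding as a dimer to palindromic response elements, and it lowers others, above all genes of inflammation, through contacts with factors such as AP-1 and NF-kB or through other DNA elements. The GRD mutation was introduced to weaken the dimer contact of the DNA-binding domain, and what such cells still do after Dex is used as a picture of the receptor's actions without it. In fibroblasts glucocorticoids are known for lowering cytokines and hyaluronan, for resetting the circadian clock and for acting on the extracellular matrix.

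The 6 GRD/D libraries held 15656116 to 19102035 counts, and levels are given as CPM, the counts of a gene scaled to a common library size. Of the 12 fibroblast markers all 12 were tested and summed to 33081 to 49652 CPM with vehicle and 43143 to 46646 CPM with Dex, with the most counts from Fn1, and Pdgfra and Thy1 rose 1.52- and 1.13-fold, the call of Thy1 being lost without Dex replicate 2 (adjusted p = 0.091) or vehicle replicate 2 (0.0516). The 12 macrophage markers summed to 715.6 to 780.4 CPM and 720.0 to 860.3 CPM, with the most counts from Lyz2 and 0 of the 12 changed, so RNA of macrophage genes was present. Endothelial, epithelial, muscle and cartilage markers summed to at most 36 CPM in any GRD/D library. Neural markers summed to 90.7 to 94.6 CPM with vehicle and 112.2 to 116.3 CPM with Dex, with the most counts from Map2. In bulk RNA, fewer cells of a type and less RNA per cell cannot be told apart. GRD/D and GRwt/wt libraries of run 1 had high Xist and next to no RNA from Y genes, and GRko/ko libraries had the reverse, so sex and genotype, and possibly strain, cannot be told apart in comparisons with GRko/ko. GRwt/wt vehicle replicate 2 stood apart from the other 2 vehicle libraries of its group, with a median of 14.0 CPM over the 43 genes raised at least 2-fold in GRD/D with a mean of at least 50 counts, against 9.34 and 9.54 CPM, so differences from GRwt/wt whose call or size rests on it are also given without it. The count of Nr3c1 does not check a point mutation. Its level was 73.2, 83.0 and 78.3 CPM with vehicle and 73.9, 64.4 and 66.7 CPM with Dex in GRD/D, so the mutant receptor's RNA was present, while GRko/ko libraries held 15.9 to 20.4 CPM.

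Of 15489 genes tested with edgeR's quasi-likelihood test, 742 (4.79%) were raised and 827 (5.34%) lowered by Dex in GRD/D once p-values were adjusted by the Benjamini-Hochberg method and held to at most 0.05, which is called passing here. Most of these changes were small. The median size on the log2 scale was 0.367 for the raised and 0.31 for the lowered genes, and 87.2% and 94.0% of them, respectively, changed less than 2-fold. With the added limit of 2-fold, 95 genes (0.613%) were raised and 50 (0.323%) were lowered, and these 145 are called the 2-fold genes below. In 92 of the 95 all Dex libraries were above all vehicle libraries, and in 50 of the 50 all were below, against 1613 above and 1949 below among all genes tested. The 2-fold genes comprised 122 protein-coding genes, and 62 had a mean of at least 50 counts, whereas 33 had a mean under 10 counts and rest on few reads. The limit has no gap around it, since Esrp2 with 1.02 and Gm9847 with 1.01 were just inside and Sphk1 with 0.9996 and Htr7 with 0.99 just outside. On the lowered side Ahr with −1.0 and 2810414N06Rik with −1.01 were inside, and Tnfsf11 and Zfp982 with −0.99 each were outside.

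Counts that rest on the adjusted p-value alone changed with the libraries in the fit. With the 6 GRD/D libraries only, 398 genes were raised and 306 lowered, and without Dex replicate 2 the counts were 489 and 433. The number of 2-fold genes was 75 and 34 with the GRD/D libraries only.

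The 15 genes raised most were taken from 2-fold genes with a mean of at least 50 counts and no overlap between treatments. The second condition removed no gene, since all 43 raised 2-fold genes with that mean met it. The 15 genes rose 2.30- to 6.66-fold. They included cytoskeletal and adhesion genes, clock genes, a receptor for cannabinoids and ligands of leukocytes. Ablim3, which encodes an actin-binding LIM protein, had 0.737, 1.04 and 1.00 CPM with vehicle and 7.0, 6.16 and 5.69 CPM with Dex, a log2 fold change of 2.73 ± 0.27 (SE). Its relative Ablim1 went from 11.5, 10.3 and 11.4 CPM to 33.3, 29.6 and 31.9 CPM, with 1.51 ± 0.18. Cdh6 (chr15:13028701-13173675, minus strand, by the GENCODE annotation of mm10), a cadherin of mesenchymal and kidney cells, had 27.2, 29.7 and 32.5 CPM and then 162.9, 144.0 and 166.0 CPM, a 5.28-fold rise. For Cdh6 the gap between the treatments was far wider than the spread within either.

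Gprc5b (chr7:118972047-118995211, minus strand), an orphan receptor of the G protein-coupled family, had 24.5, 22.6 and 23.8 CPM with vehicle and 98.9, 109.0 and 99.0 CPM with Dex, a 4.34-fold rise. Cnr1, the cannabinoid receptor that is best known from neurons, rose 5.26-fold, from 3.42, 2.80 and 3.74 CPM to 20, 16.9 and 15.4 CPM. Rgcc, a regulator of the cell cycle that also acts in vessel growth, rose 5.55-fold, from 0.871, 1.10 and 1.34 CPM to 4.69, 6.74 and 7.23 CPM. These genes started from low or moderate levels. Hip1r, an adaptor of clathrin-coated vesicles, rose 2.53-fold, and Lfng, an enzyme that modifies Notch receptors, rose 2.54-fold. Rtl3, a gene derived from a retrotransposon, rose 2.30-fold.

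Some of the genes raised most encode ligands or membrane proteins of leukocytes. Il34 encodes a ligand of the macrophage receptor Csf1r and had 3.42, 3.35 and 3.02 CPM with vehicle and 8.45, 10.3 and 8.10 CPM with Dex. Ccl3, a chemokine that attracts monocytes, went from 2.28, 2.36 and 2.74 CPM to 6.40, 7.83 and 7.37 CPM. Ms4a6b, a membrane protein of leukocytes, went from 2.28, 1.98 and 2.40 CPM to 8.65, 7.57 and 8.24 CPM. These 3 genes were higher in every Dex library than in any vehicle library. Of their relatives, Ms4a6c, Ms4a4a and the chemokine gene Ccl9 rose as well, with log2 fold changes of 1.07, 2.11 and 1.20, Ms4a4a from a mean of 24.5 counts, and the first 2 are named after their values were seen. At the same time 0 of the 12 macrophage markers passed and their median log2 fold change was 0.0653. The part of macrophage RNA in the results for Ccl3 and Ms4a6b, and for Ccl9, Ms4a6c, Ms4a4a and, below, Cx3cr1, Ccr2, H2-Aa, Lyve1 and Stab1, was not tested.

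**Figure D1:**
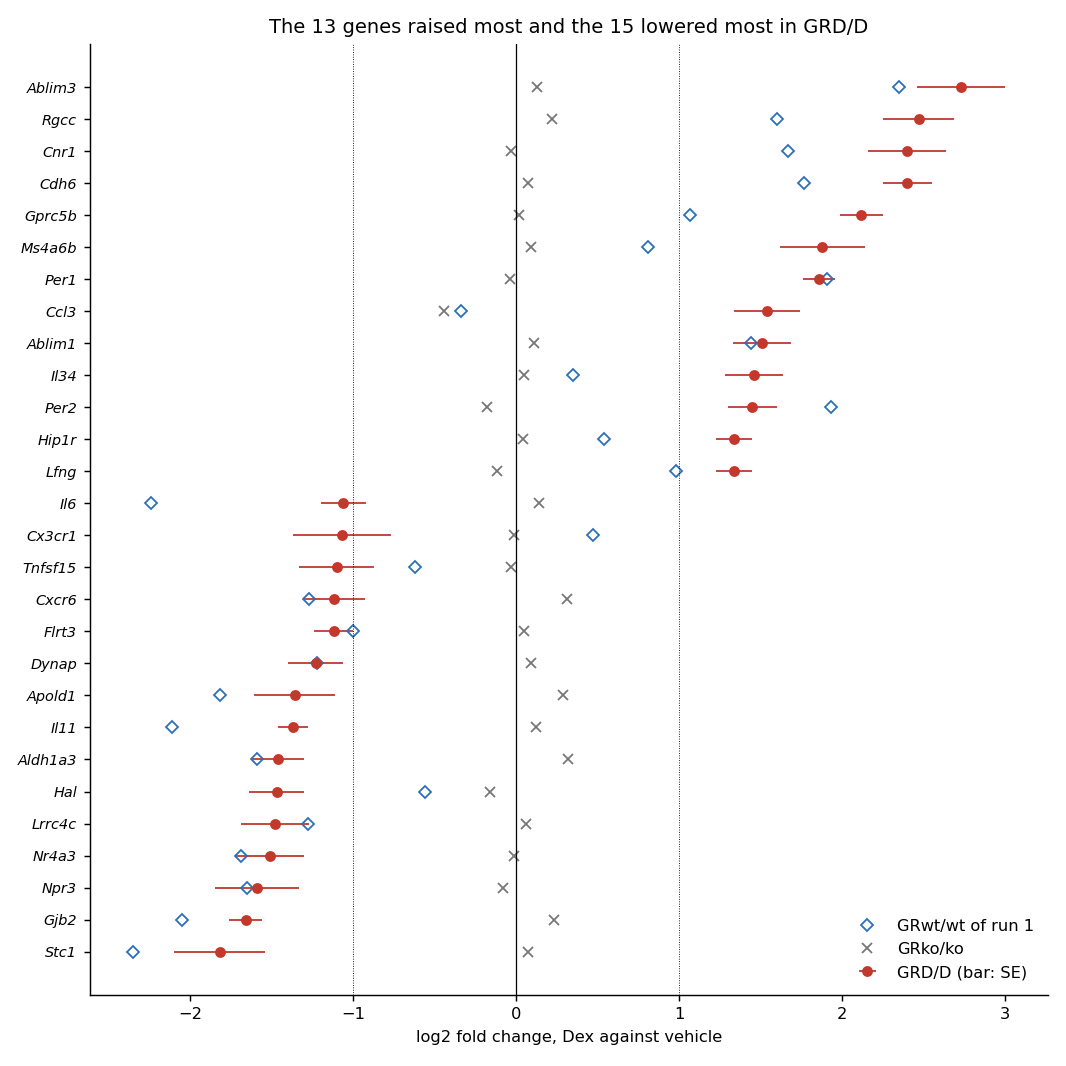
Log2 fold changes of Dex against vehicle (horizontal axis) in GRD/D for the top 13 raised and top 15 lowered 2-fold genes with a mean of at least 50 counts (vertical axis). Filled circles are GRD/D with a bar of 1 SE, open diamonds GRwt/wt of run 1 and crosses GRko/ko, and the dotted lines mark a 2-fold change. The crosses lie near 0 throughout, and the diamonds lie on the side of the circles except for Ccl3 and Cx3cr1, and without GRwt/wt vehicle replicate 2 the diamond of Ccl3 would lie at 0.30, on the side of its circle.

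The 15 genes lowered most, chosen by the same conditions, fell 2.09- to 3.52-fold. Here too all 19 lowered 2-fold genes with a mean of at least 50 counts had no overlap between treatments. Stc1, which encodes the secreted glycoprotein stanniocalcin, had 13.3, 14.3 and 16.9 CPM with vehicle and 3.96, 4.04 and 4.69 CPM with Dex, a log2 fold change of −1.82 ± 0.28. Gjb2 (chr14:57098600-57104702, minus strand), a connexin gene of gap junctions, had 26.8, 27.5 and 28.5 CPM and then 8.85, 8.79 and 8.57 CPM, with −1.66 ± 0.10 and an adjusted p-value of 3.69e-14. Its libraries were nearly identical within each treatment. Npr3, the clearance receptor of natriuretic peptides, fell 3.00-fold, from 19.2, 20.9 and 22.9 CPM to 8.25, 6.29 and 6.50 CPM. Lrrc4c, an adhesion protein that binds netrin-G, fell 2.79-fold, and Hal, which starts the breakdown of histidine, fell 2.77-fold from 5.49, 5.99 and 5.81 CPM to 2.05, 2.25 and 1.94 CPM. Flrt3, a membrane protein that takes part in adhesion and fibroblast growth factor signalling, fell 2.18-fold.

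Immune ligands and receptors made up several of the others. Cxcr6, a chemokine receptor, had 12.3, 14.1 and 10.9 CPM with vehicle and 5.22, 5.39 and 6.56 CPM with Dex. Tnfsf15, a ligand of the tumour necrosis factor family, fell 2.14-fold. Cx3cr1, the fractalkine receptor of monocytes and macrophages, went from 5.42, 4.06 and 5.25 CPM to 2.51, 2.12 and 2.34 CPM, and its fall did not pass without Dex replicate 2 (adjusted p = 0.08) or 3 (0.0504) or with DESeq2 (0.0503). Apold1, an early response gene of vessels, fell 2.56-fold and Dynap 2.35-fold. Il11, Il6, Nr4a3 and Aldh1a3, which complete the 15, are given with their pathways below.

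**Figure D2:**
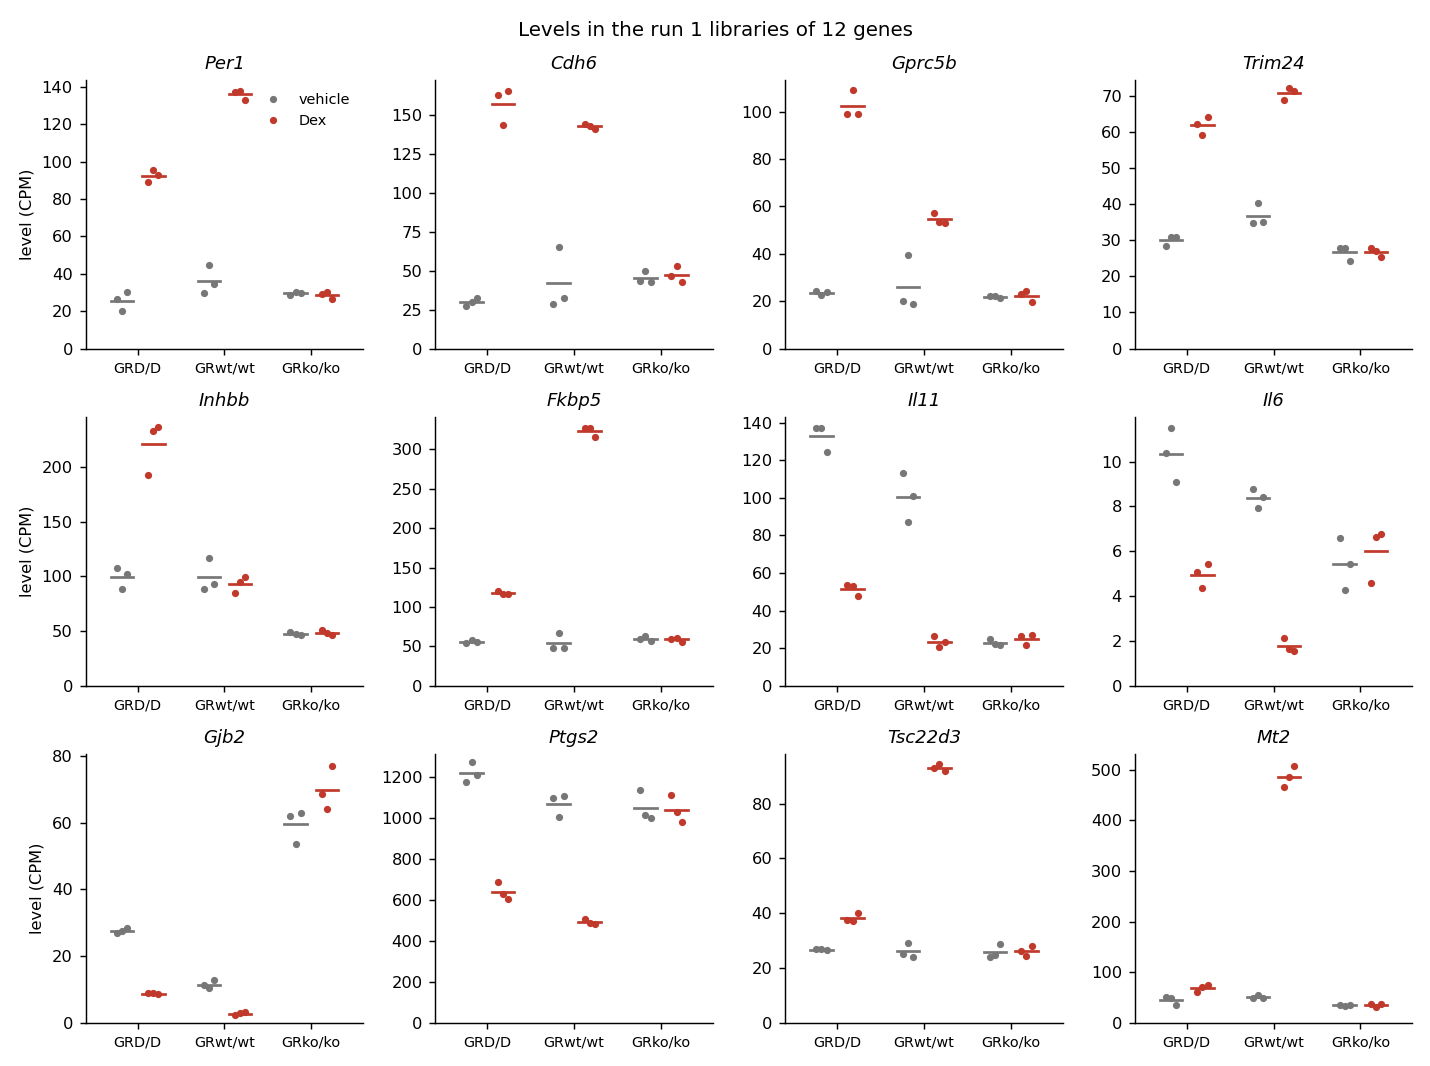
Levels in CPM (vertical axis of each panel, starting at 0) of 12 genes in the 18 libraries of GRD/D, GRwt/wt and GRko/ko of run 1. Grey points are vehicle libraries, red points Dex libraries and bars the means. In GRD/D, Dex libraries are apart from vehicle libraries in all 12 panels, with wide gaps for Per1, Cdh6, Gprc5b, Il11 and Gjb2 and narrow ones for Tsc22d3 and Mt2, where the GRwt/wt response is far larger.

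A list of 34 genes that glucocorticoids raise or lower in many tissues was used as the reference for the receptor's usual program. In GRD/D, 9 of the 34 were raised and 2 lowered (all genes: 4.79% raised and 5.34% lowered). The median log2 fold change was 0.244, against −0.00325 over all genes tested. In GRwt/wt of run 1 the median of the same genes was 0.867 and 26 of them were raised (all genes: 7.74% raised and 6.20% lowered). In GRko/ko the median was 0.012 and 0 passed (all genes: 0%). Both genotypes were fitted with a model of 12 groups that keeps the runs apart, so these counts and those of GRD/D come from unlike fits. In that model Tsc22d3 and Mt1 passed as raised and Dusp1 as lowered in GRD/D too (adjusted p = 2.98e-06, 0.00635 and 9.26e-06). The 9 raised genes were Per1, Sphk1, Sgk1, Fkbp5, Klf9, Cdkn1c, Irs2, Errfi1 and Mt2, and the 2 lowered were Angptl4 and Pik3r1.

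Among feedback genes, Fkbp5 (chr17:28399094-28517527, minus strand), a chaperone that makes GR less sensitive to hormone, had 54.4, 57.5 and 55.8 CPM with vehicle and 119.8, 116.5 and 116.1 CPM with Dex. This 2.1-fold rise in GRD/D stood beside one from 47.8, 67.4 and 47.6 CPM to 327.3, 327.0 and 315.2 CPM in GRwt/wt. The log2 fold changes were 1.07 ± 0.16 and 2.58, and their difference was −1.51 ± 0.10 (adjusted p = 9.41e-14). Tsc22d3, also known as Gilz, an inhibitor of inflammatory transcription factors, had 26.9, 26.9 and 26.4 CPM with vehicle and 37.6, 37.0 and 40.0 CPM with Dex. All 3 Dex libraries of GRD/D were above all 3 vehicle libraries, but its log2 fold change of 0.52 ± 0.24 did not pass (adjusted p = 0.178). It passed with the libraries of run 1 only (adjusted p = 4.69e-06) and with the GRD/D libraries only (0.000591). It also passed in the model of 12 groups (2.98e-06), whose use for the GRD/D response was added after the data were seen. In GRwt/wt it went from 25.1, 29.2 and 23.9 CPM to 92.9, 94.6 and 91.9 CPM, and the difference between the genotypes was −1.32 ± 0.10 (adjusted p = 8.26e-12).

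Dusp1, the phosphatase that switches off MAP kinases, differed in sign. It had 56.9, 56.0 and 53.7 CPM with vehicle and 40.3, 45 and 40.8 CPM with Dex in GRD/D, a log2 fold change of −0.40 ± 0.14 that did not pass (adjusted p = 0.0588), with every Dex library below every vehicle library. With the run 1 libraries only it passed (adjusted p = 7.68e-05), as it did in the model of 12 groups (9.26e-06). In GRwt/wt its log2 fold change was 0.34, and the difference of −0.74 ± 0.09 passed (adjusted p = 1.09e-07).

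Sgk1, a kinase that promotes sodium uptake, rose 1.33-fold in GRD/D, from 85.6, 82.9 and 86.9 CPM to 116.5, 110.7 and 112.5 CPM. The log2 fold change of 0.41 ± 0.06 was smaller than in GRwt/wt, with a difference of −0.95 ± 0.08 (−1.08 ± 0.07 without GRwt/wt vehicle replicate 2). Errfi1, an inhibitor of the EGF receptor, rose 1.59-fold, and Cdkn1c, an inhibitor of cyclin-dependent kinases, rose 2.06-fold, from 48.0, 42.8 and 44.2 CPM to 91.6, 96.4 and 89.4 CPM. Without GRwt/wt vehicle replicate 2, Cdkn1c was not shown to differ from GRwt/wt (0.11 ± 0.16, adjusted p = 0.899). Irs2, an adaptor of the insulin receptor, rose 1.40-fold. Angptl4, a secreted inhibitor of lipoprotein lipase, fell from 26.1, 27.0 and 24.3 CPM to 15.5, 13.9 and 17.4 CPM, and Pik3r1, the regulatory subunit of phosphoinositide 3-kinase, fell by 0.28 on the log2 scale and had a log2 fold change of 0.63 in GRwt/wt.

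Other genes of the list gave no change that passed. Pdk4, which holds back the oxidation of glucose, had 6.36, 5.05 and 6.81 CPM with vehicle and 6.54, 6.42 and 5.16 CPM with Dex in GRD/D, overlapping between treatments, and a log2 fold change of 1.85 in GRwt/wt. Zbtb16, a zinc finger transcription factor, was at 0.066 to 0.279 CPM in all 6 GRD/D libraries, whereas the GRwt/wt libraries of run 1 held 0 CPM in each vehicle library and 2.6, 2.07 and 2.46 CPM with Dex. Of the 34 genes, 19 had a response that differed from that of GRwt/wt, 18 of them in the lower direction (all genes: 2.20% lower and 1.08% higher).

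**Figure D3:**
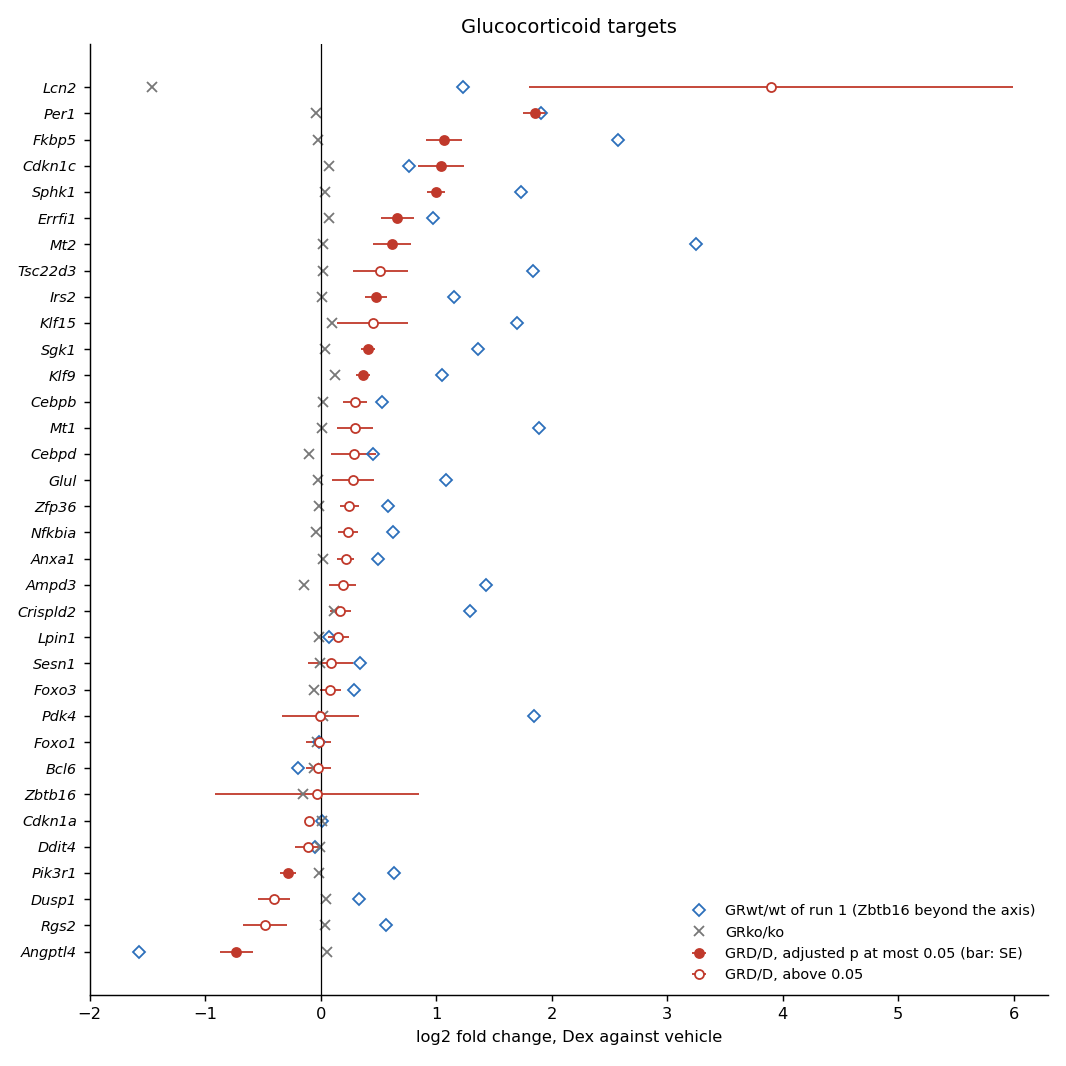
Log2 fold changes of Dex against vehicle (horizontal axis) for the 34 glucocorticoid targets (vertical axis). Circles are GRD/D with a bar of 1 SE, filled where the gene passed, diamonds are GRwt/wt of run 1 and crosses are GRko/ko, and Zbtb16 of GRwt/wt with 8.57 lies beyond the axis. At Per1 the filled circle and the diamond meet, while Fkbp5, Mt2 and Sgk1 have circles well to the left of their diamonds.

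Of 23 genes for the receptor, its relatives and its chaperones, Fkbp5 rose and Nr3c1 fell, shares near those of all genes (4.79% raised and 5.34% lowered). The log2 fold change of Nr3c1 was −0.20 ± 0.06 (adjusted p = 0.0454), the libraries overlapped, and the call was lost under several alternatives, among them DESeq2's size factors (0.0588) and no filter on low counts (0.0595). Metallothioneins bind zinc and are strong glucocorticoid targets. Mt2 had 51.2, 49.6 and 34.8 CPM with vehicle and 60.8, 71.5 and 75.5 CPM with Dex in GRD/D, against 49.2, 55.4 and 48.7 CPM and 465.6, 484.8 and 507.4 CPM in GRwt/wt. The 1.54-fold rise in GRD/D (adjusted p = 0.0113) was lost without Dex replicate 3 (0.061) or without vehicle replicate 3 (0.0866). Mt1 had 111.9, 99.9 and 87.9 CPM and then 119.9, 133.2 and 114.1 CPM, and its log2 fold change of 0.30 ± 0.16 did not pass (adjusted p = 0.245) but did with the run 1 libraries only (0.00156). Of the 16 genes of this group 3 rose and 4 fell, and Mt3, the third of the risers, rests on a mean of 1.33 counts. The zinc carriers Slc39a6, Slc30a4 and Slc30a7 fell by 0.22, 0.27 and 0.21 on the log2 scale, and without Dex replicate 2 Slc30a4 and Slc30a7 did not pass (adjusted p = 0.0506 and 0.0835).

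The clock runs on a loop in which Per and Cry proteins block their own activators, and glucocorticoids reset it through Per1. Of 22 clock genes tested 6 rose and 2 fell (all genes: 4.79% raised and 5.34% lowered), and the median of the list was 0.0743. Per1 (chr11:69095217-69109960, plus strand) had 26.6, 20.2 and 30.0 CPM with vehicle and 89.0, 95.6 and 92.9 CPM with Dex, a 3.62-fold rise with a log2 fold change of 1.86 ± 0.10 and an adjusted p-value of 1.42e-15. Per2 rose 2.74-fold, from 3.75, 3.19 and 4.41 CPM to 10.1, 9.69 and 11.3 CPM. Both genes had log2 fold changes in GRwt/wt, 1.91 and 1.93, from which GRD/D was not shown to differ (adjusted p = 0.948 and 0.394). The differences were −0.06 ± 0.14 for Per1 and −0.47 ± 0.22 for Per2, and an interval of 2 SE around the second reaches well below 0. Without GRwt/wt vehicle replicate 2 they were −0.24 ± 0.13 and −0.71 ± 0.24 (adjusted p = 0.53 and 0.122). The other repressors Cry1 and Cry2 rose 1.55- and 1.33-fold. Tef and Hlf, which are output factors of the clock, rose too, Hlf from a mean of 5.83 counts. Nr1d1 and Nr1d2, nuclear receptors that repress the activator Bmal1, fell by 0.45 and 0.20 on the log2 scale. In the same libraries Per1, Per2, Cry1 and Cry2 thus moved up and both Nr1d genes moved down. Of the 15 Kruppel-like transcription factors 3 rose, namely Klf6 (1.27-fold), Klf9 (1.29-fold) and Klf13 (1.32-fold, adjusted p = 0.0604 without vehicle replicate 2), and 0 fell. Klf9, a direct target in many tissues, had a log2 fold change of 0.37 in GRD/D and 1.05 in GRwt/wt, a difference of −0.69 ± 0.08 (adjusted p = 6e-08).

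Of 28 cytokine and chemokine genes tested 6 fell and 1 rose (all genes: 4.79% raised and 5.34% lowered), and the median was −0.0675. In GRwt/wt, fitted with the model of 12 groups, the median was −0.499 and 11 fell and 2 rose. Of the 6 that fell, 4 belong to the family that signals through the shared receptor chain Il6st. Il11 (chr7:4772373-4782859, minus strand), which acts on fibroblasts themselves, had 137.3, 137.2 and 124.7 CPM with vehicle and 53.5, 53.0 and 47.5 CPM with Dex, a 2.59-fold fall (adjusted p = 8.35e-14). Il6 (chr5:30013114-30019981, plus strand), a main inflammatory cytokine of fibroblasts, had 10.4, 11.5 and 9.10 CPM and then 5.08, 4.36 and 5.42 CPM, a 2.09-fold fall (adjusted p = 1.51e-06). Clcf1 went from 32.2, 31.4 and 32.2 CPM to 20.6, 20.7 and 21.3 CPM, and Lif fell by 0.67 on the log2 scale. Il11 and Il6 were at the same time lowered less than in GRwt/wt, by 0.74 ± 0.12 and 1.18 ± 0.23 on the log2 scale (adjusted p = 3.76e-05 and 0.000898). Clcf1 was not shown to differ from GRwt/wt, with a difference of 0.02 ± 0.12. Tnfsf11, the ligand that drives osteoclasts, had 15.1, 15.1 and 16.4 CPM with vehicle and 7.66, 6.80 and 8.97 CPM with Dex, and Cx3cl1, the ligand of Cx3cr1, fell by 0.33 on the log2 scale. Ccl9, a chemokine of myeloid cells, was the 1 of this list that rose, from 8.04, 9.01 and 9.66 CPM to 20.9, 18.8 and 21.9 CPM. It had a log2 fold change of −0.48 in GRwt/wt (adjusted p = 0.364), which was 0.26 without GRwt/wt vehicle replicate 2. The ligands Ccl3 and Il34, which rose, and Tnfsf15, which fell, were not on the list, so its balance holds for its members only.

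Of 24 inflammatory effectors tested 5 fell and 1 rose (all genes: 4.79% raised and 5.34% lowered), with a median of −0.0703. Ptgs2, the inducible enzyme of prostaglandin synthesis, had 1178.7, 1273.7 and 1211.6 CPM with vehicle and 689.6, 629.8 and 604.1 CPM with Dex, a 1.90-fold fall. Pla2g4a, the phospholipase that supplies its substrate, fell 1.49-fold. Vcam1, an adhesion molecule for leukocytes, fell 1.63-fold, from 87.3, 89.9 and 80.3 CPM to 53.3, 52.1 and 52.6 CPM. All 3 had log2 fold changes close to those in GRwt/wt, with differences of 0.19 ± 0.09, −0.09 ± 0.08 and 0.09 ± 0.07. Ch25h, which makes the sterol from which an attractant of B cells is formed, fell by 0.87 on the log2 scale and Tlr2, a receptor for bacterial lipoproteins, by 0.66. Ptx3, a pentraxin of innate defence, rose 2.27-fold from 19.9, 18.1 and 20.7 CPM to 40.1, 44.8 and 48.5 CPM.

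The list of inhibitors of inflammation and their relatives moved in both directions, with 2 of 23 raised and 6 lowered (all genes: 4.79% raised and 5.34% lowered). Zfp36l2, which destabilizes cytokine mRNAs, rose 1.88-fold, from 196.4, 156.5 and 220.2 CPM to 359.7, 370.9 and 349.2 CPM, and Socs2, a brake on cytokine receptors, rose by 0.61 on the log2 scale. Il1rl1, the receptor of interleukin 33 in its membrane and decoy forms, fell 1.52-fold, from 322.2, 358.6 and 323.7 CPM to 231.2, 211.6 and 218.6 CPM. It had a log2 fold change of 0.38 in GRwt/wt, and the difference of −0.98 ± 0.11 passed (adjusted p = 6.97e-08). Nfkbiz, listed as a relative of the NF-kB inhibitors and not taken as a dampener here, fell 1.69-fold. Socs5 fell 1.41-fold, and Tnfaip3, which ends NF-kB signalling, fell by 0.47 on the log2 scale. Zfp36, Nfkbia and Tsc22d3, the inhibitors that are most often named as glucocorticoid targets, had log2 fold changes of 0.25, 0.24 and 0.52 that did not pass in the main fit. Tsc22d3 did pass in other fits, as given above, among them that of the run 1 libraries only (adjusted p = 4.69e-06).

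**Figure D4:**
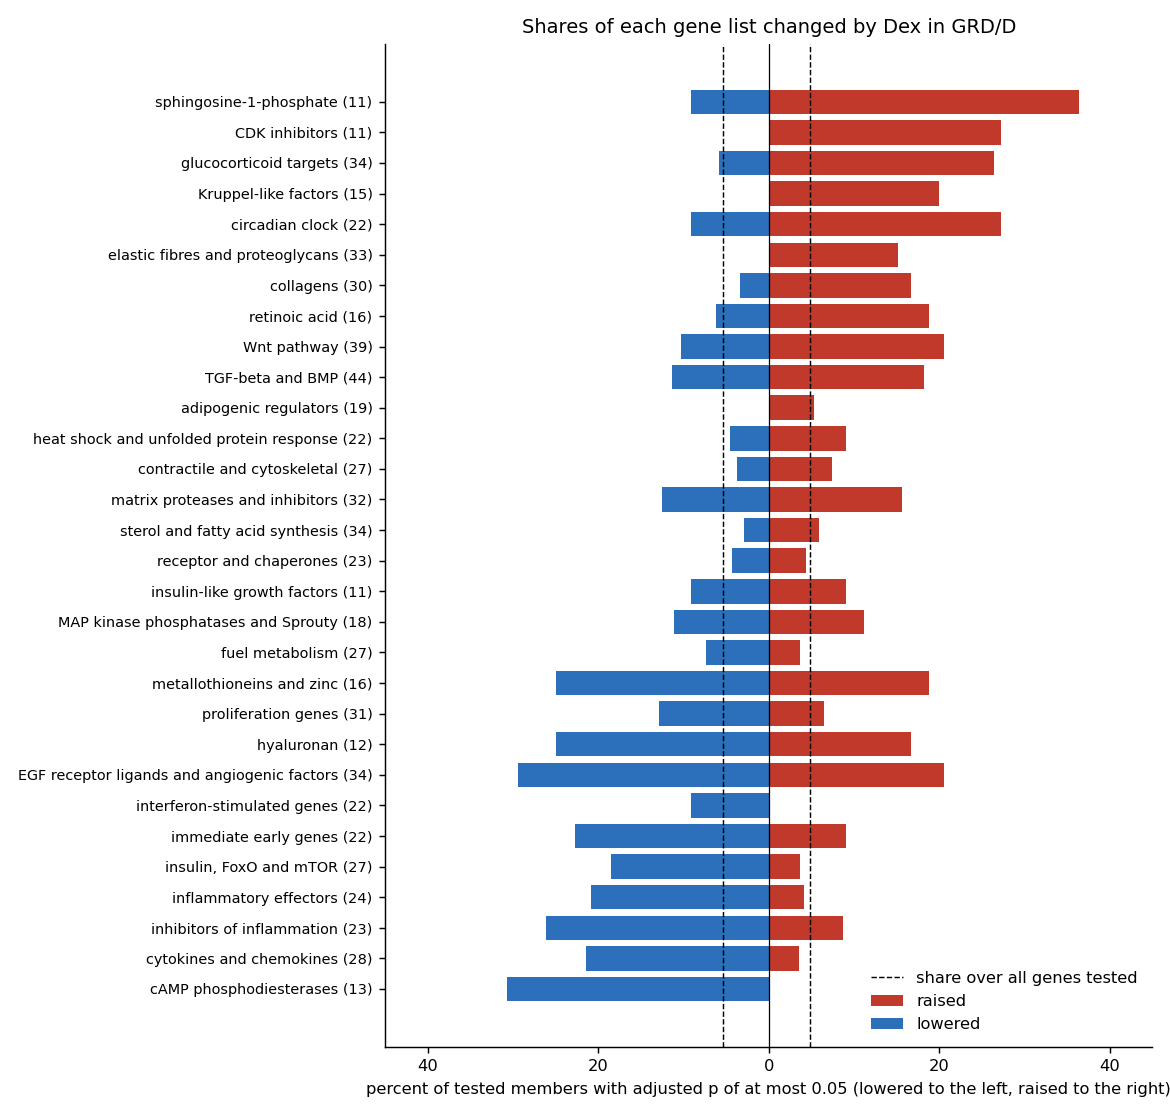
Percent of the tested members of each of 30 gene lists (vertical axis, number tested in parentheses) that passed an adjusted p-value of 0.05 in GRD/D, with raised members to the right and lowered members to the left on the horizontal axis. Dashed lines mark the share over all 15489 genes tested, 4.79% raised and 5.34% lowered. The cytokine, effector, cAMP phosphodiesterase and insulin lists reach further to the left than to the right, and the clock, Kruppel-like factor, glucocorticoid target and elastic fibre lists reach further to the right.

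For 1 of the genes raised most and 2 of those lowered most the bases before the start are shown, since both raised and lowered genes held the AP-1 motif there. Promoter windows of RefSeq on GRCm38.p6, 250 bases before to 50 after the start of transcription, were matched by symbol to 11201 of the tested genes, 58 of the 95 raised and 34 of the 50 lowered 2-fold genes. A gene was counted for a motif if at least 1 of its windows held it, and shares are of matched genes. TGANTCA, the AP-1 motif, which reads the same on both strands, was in 10 (17.2%) of the raised and 5 (14.7%) of the lowered 2-fold genes, against 6.58% of tested genes. Of all 32851 windows, counted singly, 7.81% held it, so this share and those of windows below are not in the same unit. GNACANNNTGTNC, the core of the receptor's palindrome, likewise the same on both strands, was in 3 (5.17%) of the raised genes, namely Gm6093, Map7d2 and Sptb, in 0 of the lowered, and in 0.402% of tested genes and 0.475% of all windows. AGAACA, the receptor's half-site searched on both strands, was in 20.7% of the raised and 17.6% of the lowered genes, against 14.8% of tested genes and 19.0% of all windows. It can lie within the palindrome. Windows of 3 genes follow, 5′ to 3′ on the strand of the gene and without the bases after the start, and capitals mark the TGANTCA match, which begins 168 bases before the start in Ablim1, 98 in Il11 and 249 in Il6. Ablim1 lies at chr19:57274669-57274918 on the minus strand (1 of its 5 windows), Il11 at chr7:4778142-4778391 on the minus strand (1 of 2) and Il6 at chr5:30012864-30013113 on the plus strand. A match is a description of letters and not of binding.
Ablim1: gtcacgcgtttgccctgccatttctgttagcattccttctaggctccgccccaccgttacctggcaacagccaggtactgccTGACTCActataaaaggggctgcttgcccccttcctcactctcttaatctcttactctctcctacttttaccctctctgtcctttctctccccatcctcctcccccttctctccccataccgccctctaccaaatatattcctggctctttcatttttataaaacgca
Il11: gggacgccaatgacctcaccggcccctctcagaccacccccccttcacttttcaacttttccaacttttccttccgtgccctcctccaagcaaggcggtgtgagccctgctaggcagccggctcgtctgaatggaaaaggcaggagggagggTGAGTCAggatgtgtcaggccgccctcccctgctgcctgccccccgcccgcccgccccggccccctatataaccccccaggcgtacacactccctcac
Il6: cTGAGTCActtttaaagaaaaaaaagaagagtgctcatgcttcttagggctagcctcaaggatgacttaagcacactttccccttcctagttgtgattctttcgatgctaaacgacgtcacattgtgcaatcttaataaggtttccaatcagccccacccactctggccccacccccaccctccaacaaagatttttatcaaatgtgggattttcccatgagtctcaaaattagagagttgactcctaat

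Of 22 immediate early genes 5 fell and 2 rose, where for this and the next 2 lists the shares over all genes were 4.79% raised and 5.34% lowered. The 3 orphan receptors of the Nr4a family, which are switched on within minutes by cAMP and growth factors, all fell. Nr4a3 had 7.57, 5.44 and 7.71 CPM with vehicle and 2.51, 2.12 and 2.61 CPM with Dex, a 2.85-fold fall. Nr4a1 went from 118.1, 96.6 and 116.6 CPM to 70.4, 75.8 and 74.3 CPM, and Nr4a2 fell 1.48-fold, a call lost without Dex replicate 2 (adjusted p = 0.0784), Dex replicate 3 (0.0509) or vehicle replicate 3 (0.0675). Nr4a1 and Nr4a2 were lowered less than in GRwt/wt, with differences of 0.78 ± 0.11 and 0.71 ± 0.16, while Nr4a3 was not shown to differ (0.18 ± 0.26). Egr2 fell 1.45-fold and Ier3 by 0.30 on the log2 scale, and Junb and Mafk rose by 0.22 and 0.18. Of the 18 MAP kinase phosphatases and Sprouty genes, Dusp5 and Errfi1 rose 1.35- and 1.59-fold and Spred1 and Spred3 fell 1.30- and 1.19-fold, Spred3 with a call that was lost in 4 of the 6 fits without a single GRD/D library (adjusted p up to 0.122). Dusp5 had a log2 fold change of −0.25 in GRwt/wt, from which its 0.43 in GRD/D differed (adjusted p = 7.38e-06). Of the 13 cAMP phosphodiesterases tested, which break down the second messenger cAMP, 4 fell and 0 rose, with a median of −0.149. Pde4b went from 28.5, 27.8 and 27.8 CPM to 13.8, 14.6 and 16.7 CPM, and Pde8b from 42.8, 46.1 and 44.0 CPM to 29.8, 28.2 and 28.9 CPM. Pde4d and Pde3b fell 1.23- and 1.26-fold, and each lost its call in 3 of these 6 fits (adjusted p up to 0.129 and 0.165).

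Ligands of the TGF-beta family act on fibroblasts to make matrix and are held in check by secreted antagonists. Of 44 genes tested 8 rose and 5 fell (all genes: 4.79% raised and 5.34% lowered), with a median of 0.110. Of the activin chains, Inhbb rose from 107.3, 88.0 and 101.8 CPM to 192.8, 233.1 and 236.4 CPM, whereas Inhba fell from 1946.5, 2071.8 and 2030.8 CPM to 1200.3, 1108.1 and 1108.3 CPM. The activin antagonists Fst and Fstl3 rose, Fst from 60.0, 52.6 and 54.7 CPM to 108.1, 109.0 and 96.7 CPM and Fstl3 from 56.0, 48.3 and 50.6 CPM to 89.9, 85.1 and 87.9 CPM. Inhba thus fell while both antagonists of activin rose. Tgfbr1, the signalling receptor of TGF-beta, rose 1.95-fold, from 47.1, 58.4 and 51.3 CPM to 100, 100.2 and 106.7 CPM, and Tgfb2 rose by 0.79 on the log2 scale. Tgfbr1 had a log2 fold change of 0.31 in GRwt/wt, lower by 0.65 ± 0.11 (adjusted p = 0.000217), and lower by 0.49 ± 0.10 without the GRwt/wt vehicle library that stood apart (0.00153). Of the BMP genes, the antagonist Grem1 fell from 351.8, 343.8 and 346.8 CPM to 195.4, 208.4 and 222.4 CPM, and the receptors Bmpr1a and Bmpr1b fell by 0.30 and 0.44 on the log2 scale.

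Of 39 Wnt pathway genes tested 8 rose and 4 fell (all genes: 4.79% raised and 5.34% lowered), with a median of −0.0294. Among ligands, Wnt5a, which signals without beta-catenin in many cells, rose 1.31-fold from 251.8, 250.1 and 277.2 CPM to 352.3, 332.3 and 333.9 CPM, and Wnt4 fell 1.63-fold. Wnt2 rose by 0.62 and Wnt11 fell by 0.43 on the log2 scale. Among receptors, Fzd1 rose 1.57-fold from 48.5, 42.1 and 47.7 CPM to 67.2, 72.7 and 77.6 CPM, and Fzd2 and Ror2, a receptor of Wnt5a, rose by 0.39 and 0.40, while Fzd4 fell by 0.60. The R-spondins, which strengthen Wnt signals, went apart, with Rspo3 rising 1.49-fold and Rspo2 falling by 0.82.

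Of 34 EGF receptor ligands and angiogenic factors 7 rose and 10 fell (all genes: 4.79% raised and 5.34% lowered). Fgf7, a factor that fibroblasts supply to epithelium, had 83.9, 90.6 and 76.6 CPM with vehicle and 41.1, 41.4 and 40.4 CPM with Dex, a 2.04-fold fall. Egfr itself fell 1.49-fold, and of its ligands and those of its relatives Areg, Nrg1, Ereg and Hbegf fell by 1.06, 0.76, 0.38 and 0.22 on the log2 scale, Areg from a mean of 23.8 counts. The receptor and 4 ligands thus moved the same way, while Erbb2, a partner of the receptor, rose by 0.19. Of the angiogenic factors, Vegfc rose 1.76-fold from 22.2, 21.7 and 21.3 CPM to 38.0, 39.7 and 37.0 CPM, and Flt1, a receptor that traps Vegfa, rose by 0.62, while Vegfa and Pgf fell by 0.21 and 0.75. Of 11 genes of the insulin-like growth factor system (all genes: 4.79% raised and 5.34% lowered), Igf1 fell 1.32-fold and Igfbp3 rose 1.66-fold with overlapping libraries. Each lost its call in 3 of the 6 fits without a single GRD/D library, with an adjusted p-value of up to 0.126 and 0.192 without vehicle replicate 2.

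Hyaluronan is a matrix sugar made at the plasma membrane by Has enzymes. Has2 had 257.5, 290.4 and 263.2 CPM with vehicle and 157.4, 147.3 and 147.7 CPM with Dex, a 1.79-fold fall, and Has1 went from 2.81, 2.03 and 2.12 CPM to 0.594, 0.962 and 0.469 CPM. Has2 was lowered less than in GRwt/wt, by 0.66 ± 0.09 on the log2 scale (adjusted p = 4.68e-06). Ugdh, which makes the precursor of hyaluronan and of other matrix sugars and was not on the list, rose 2.1-fold in the same libraries, from 254.5, 272.2 and 251.8 CPM to 564.9, 546.9 and 526.8 CPM. In total, 3 of 12 hyaluronan genes fell and 2 rose (all genes: 4.79% raised and 5.34% lowered). The risers were Lyve1, with a mean of 9.83 counts, and Stab1, which are both also made by macrophages. Stab1 did not pass without Dex replicate 3 (adjusted p = 0.0786) or vehicle replicate 2 (0.0963). Of 11 genes for the lipid messenger sphingosine-1-phosphate 4 rose and 1 fell. The kinase Sphk1 that makes it rose from 46.9, 43.1 and 41.5 CPM to 84.7, 96.2 and 81.8 CPM, and the receptor S1pr1 fell from 64.6, 66.0 and 63.8 CPM to 34.7, 37.2 and 34.8 CPM. Sphk1 was raised less than in GRwt/wt (−0.73 ± 0.09) and S1pr1 was lowered less (0.45 ± 0.09).

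Of 30 collagen genes 5 rose and 1 fell (all genes: 4.79% raised and 5.34% lowered). The median of 0.143 stood beside 0.0856 in GRko/ko and 0.0355 in GRwt/wt. Col11a1, a fibril collagen, rose 1.91-fold from 129.9, 122.5 and 136.3 CPM to 243.5, 244.4 and 254.0 CPM, less than in GRwt/wt by 0.95 ± 0.09 on the log2 scale. Col4a1 of basement membranes rose 1.24-fold and Col7a1 1.38-fold with overlapping libraries, while Col8a1 fell 1.17-fold. Without vehicle replicate 2 the log2 fold changes of Col4a1 and Col7a1 went from 0.31 and 0.46 to 0.196 and 0.309 and did not pass (adjusted p = 0.203 and 0.144), nor did they without Dex replicate 3 (0.0722 and 0.108). Of 33 elastic fibre and proteoglycan genes 5 rose and 0 fell, among them the crosslinking enzymes Loxl1 (1.27-fold) and Loxl3 (1.23-fold). These matrix changes were small. Of 32 matrix proteases and inhibitors 5 rose and 4 fell. Adamts1, a protease of proteoglycans, rose 1.68-fold from 114.1, 116.7 and 124.6 CPM to 205.1, 200.8 and 192.5 CPM, against a log2 fold change of 2.18 in GRwt/wt. Its relatives Adamts4 and Adamts5 fell 1.41- and 1.20-fold, Adamts4 with an adjusted p-value of 0.0747 without Dex replicate 2. Timp3, an inhibitor of metalloproteases, fell 1.5-fold from 1069.0, 1042.1 and 1098.4 CPM to 683.2, 717.7 and 732.8 CPM. Of 27 contractile and cytoskeletal genes Lmod1 and Mrtfa rose 1.36- and 1.21-fold and Tpm1 fell 1.11-fold, shares near those of all genes. Mrtfa went from 0.28 to 0.145 on the log2 scale without vehicle replicate 2 (adjusted p = 0.26) and was also lost without Dex replicate 1 or 3, and Tpm1 was lost in 5 of the 6 fits without a single GRD/D library (adjusted p up to 0.147).

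Of 27 genes of insulin, FoxO and mTOR signalling 5 fell and 1 rose (all genes: 4.79% raised and 5.34% lowered). Fbxo32, a ubiquitin ligase of muscle wasting, fell 1.93-fold from 36.6, 38.3 and 39.4 CPM to 19.7, 19.7 and 19.8 CPM. The 2 adaptors of the insulin receptor went apart, with Irs1 falling 1.52-fold and Irs2 rising 1.40-fold, and Irs1 had a log2 fold change of 0.04 in GRwt/wt (difference −0.65 ± 0.13, adjusted p = 0.00106). Sesn3 fell 1.40-fold. Fuel metabolism gave 1 raised gene, Pfkfb4, and 2 lowered genes among 27, and sterol and fatty acid synthesis gave 2 raised genes and 1 lowered gene among 34. Scap, a regulator of sterol synthesis, rose 1.40-fold, from 138.9, 124.8 and 147.2 CPM to 190.0, 195.6 and 191.6 CPM. Of 19 adipogenic regulators Fabp4, a fatty acid carrier, was the 1 that passed, with 3.75, 5.33 and 3.74 CPM and then 7.59, 7.96 and 7.97 CPM. These 3 lists held shares near or under those of all genes tested. Of 16 retinoic acid genes 3 rose and 1 fell. Aldh1a3, which makes retinoic acid, fell from 12.5, 12.6 and 13.1 CPM to 4.82, 4.43 and 4.69 CPM, and Cyp26b1, which breaks it down, rose from 3.01, 3.24 and 4.80 CPM to 6.87, 7.44 and 9.51 CPM. Neither was shown to differ from GRwt/wt (0.14 ± 0.20 and −0.17 ± 0.21), and the receptors Rara and Rxrb rose 1.30- and 1.14-fold, Rxrb with a call lost without Dex replicate 2 (0.0998) or vehicle replicate 2 (0.083).

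Of 11 inhibitors of cyclin-dependent kinases and related growth arrest genes 3 rose and 0 fell, namely Cdkn1c, Gadd45g (1.52-fold) and Cdkn2b (1.14-fold). Of 31 proliferation genes 2 rose and 4 fell. The shares over all genes were 4.79% raised and 5.34% lowered. Beside them, this count and those of the interferon and heat shock lists below are too small to read as pathway responses. Ccnd1 rose 1.14-fold and Ccnd2 fell 1.23-fold, and Rrm2 rose 1.32-fold while Cenpe, Top2a and Bub1 fell by 0.33, 0.18 and 0.33 on the log2 scale. Of 22 interferon-stimulated genes Irf1 and Ddx58 fell 1.42- and 1.17-fold and 0 rose, and of 22 heat shock and unfolded protein genes Hsf1 and Xbp1 rose 1.19- and 1.11-fold and Hsph1 fell 1.25-fold. Of these small changes, the calls of Cdkn2b, Cenpe, Ddx58 and Xbp1 were lost in 2, 1, 4 and 3 of the 6 fits without a single GRD/D library (adjusted p up to 0.148, 0.107, 0.197 and 0.15). Over the 30 lists together, 84 of 686 tested members (12.2%) rose and 80 (11.7%) fell, and 143 of these 164 changed less than 2-fold. The lists were chosen with earlier results of these data known, so their shares are no independent sign that these pathways respond more often than other genes.

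The response of GRD/D was set against that of GRko/ko, within run 1 and by an interaction contrast, to ask how much of it exceeded what Dex does without a receptor. In GRko/ko itself edgeR gave 0 genes (0%) at the adjusted p-value and 859 at an unadjusted p under 0.05. The responses differed for 937 genes, with 440 (2.84%) higher and 497 (3.21%) lower in GRD/D. Of the 2-fold genes, 63 of 95 raised and 33 of 50 lowered genes differed, and their medians of 1.44 and −1.37 in GRD/D stood beside −0.0275 and 0.066 in GRko/ko. The direction of these medians in GRD/D follows from the choice of the genes. The choice also favours a difference, since the contrast uses the same GRD/D libraries, so the 63 and 33 are no independent measure.

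The 5 differences with the smallest p-values were those of Gjb2, Il11, Per1, Timp3 and Trim24. Trim24 (chr6:37870811-37966296, plus strand), a ubiquitin ligase that also acts with nuclear receptors, had 28.4, 31.0 and 31.0 CPM with vehicle and 62.3, 59.2 and 64.3 CPM with Dex in GRD/D. In GRko/ko it had 27.9, 28.0 and 24.3 CPM and then 27.9, 27.0 and 25.5 CPM, and the difference was 1.03 ± 0.08 (adjusted p = 9.33e-11). GRwt/wt was close to GRD/D for this gene, with 34.8, 40.2 and 35.2 CPM and then 69.0, 72.1 and 71.4 CPM. Per1 stayed at 26.5 to 30.4 CPM in all 6 GRko/ko libraries. Gjb2 had 53.6 to 63.0 CPM with vehicle and 64.1 to 76.8 CPM with Dex in GRko/ko, a log2 fold change of 0.23 that did not pass (adjusted p = 0.64), and the difference between the genotypes was −1.89 ± 0.13 (adjusted p = 1.23e-12). Il11 had 21.9 to 24.7 CPM and 21.5 to 27.1 CPM in GRko/ko, under the 47.5 to 53.5 CPM that remained in GRD/D after Dex. Vehicle levels in GRko/ko thus differed from those in GRD/D for both lowered genes, and sex, possibly strain, and genotype cannot be told apart there.

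The contrasts with GRwt/wt and with GRko/ko share the GRD/D libraries. The response differed between GRD/D and GRwt/wt of run 1 for 509 genes, higher in GRD/D for 168 (1.08%) and lower for 341 (2.20%). Of the 95 raised 2-fold genes, 6 were raised less and 13 more than in GRwt/wt, and 76 were not shown to differ. Without GRwt/wt vehicle replicate 2 these numbers were 7 and 7. Of the 50 lowered genes 2 were lowered less, 3 were lowered more and 45 were not shown to differ, and without that library 2 were lowered less and 2 more. The 2-fold genes were chosen for a large change in the same GRD/D libraries. This favours larger changes there and leaves out genes whose response was small in GRD/D. The split into less and more is thus no measure of the balance, which over all genes was 168 higher and 341 lower. A missed threshold does not show that responses were alike, since 33 of the 145 genes had a mean under 10 counts. In GRwt/wt 52 of the raised and 25 of the lowered 2-fold genes passed in the same direction, where 7.74% and 6.20% of all genes passed, and the medians were 0.947 and −0.955. These values include GRwt/wt vehicle replicate 2 and were not recomputed without it. Since that library held higher levels of raised genes, rises in GRwt/wt may be understated in them.

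Some genes were raised more in GRD/D than in GRwt/wt. Inhbb (chr1:119415465-119422248, minus strand) had 88.9, 116.5 and 93.3 CPM with vehicle and 84.8, 95.0 and 99.1 CPM with Dex in GRwt/wt, where the treatments overlapped, while the Dex libraries of GRD/D held 192.8 to 236.4 CPM. The difference was 1.26 ± 0.13 (adjusted p = 1e-08), and 1.13 ± 0.13 without the vehicle library that stood apart (8.25e-08). Ugdh had 211.6, 309.9 and 193.4 CPM and then 206.6, 204.4 and 198.3 CPM in GRwt/wt, and its difference was 1.30 ± 0.12, or 1.07 ± 0.07 without that library (adjusted p = 1.65e-13). Both genes kept a difference of over 2-fold either way. Gprc5b had 20.1, 39.4 and 18.7 CPM and then 57.2, 53.3 and 53.1 CPM in GRwt/wt, a rise there too with a log2 fold change of 1.07 (1.49 without that library), and the difference of 1.04 ± 0.18 became 0.63 ± 0.10 (adjusted p = 3.94e-05). Hip1r, with a log2 fold change of 0.54 in GRwt/wt that also passed, differed by 0.80 ± 0.13 and then 0.62 ± 0.12, and Mgp, an inhibitor of calcification that went from 113.6, 109.6 and 85.5 CPM to 209.3, 250.6 and 242.4 CPM in GRD/D, by 1.03 ± 0.19 and then 0.86 ± 0.19. For Ccl3, Ccl9 and Il34 the difference no longer passed without that library (adjusted p = 0.231, 0.177 and 0.126), and the log2 fold changes of Ccl3 and Ccl9 in GRwt/wt turned from −0.34 and −0.48 to 0.30 and 0.26.

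Of the lowered genes, Fgf7 fell further in GRD/D than in GRwt/wt, where it went from 64.2, 54.9 and 55.9 CPM to 39.2, 37.7 and 39.4 CPM. The Dex levels of the 2 genotypes were close and the vehicle levels were not, and the difference of −0.44 ± 0.11 (adjusted p = 0.0168) was −0.40 ± 0.12 without the GRwt/wt vehicle library (0.0603). Cx3cr1 and H2-Aa, a class II antigen of presenting cells with a mean of 8.50 counts, fell in GRD/D but not in GRwt/wt of run 1. Their log2 fold changes there were 0.47 and 1.03 and did not pass. The differences had adjusted p-values of 0.0466 and 0.0164, or 0.0254 and 0.0472 without the GRwt/wt vehicle library that stood apart. In GRwt/wt of run 2 Cx3cr1 had a log2 fold change of −1.62, below the −1.07 of GRD/D, and H2-Aa had 0.38. The fall of H2-Aa in GRD/D itself did not pass without Dex replicate 2 (adjusted p = 0.122), Dex replicate 3 (0.0998) or vehicle replicate 3 (0.0703), and that of Cx3cr1 not without Dex replicate 2 (0.08) or 3 (0.0504). Hal and Ccr2 came next by p-value but were not shown to differ (adjusted p = 0.125 and 0.198), and Ccr2 was at 0 CPM in each Dex library of GRD/D against 0.268, 0.165 and 0.223 CPM with vehicle. Il11 and Il6 were the 2 that were lowered less. Among raised genes with a mean of at least 50 counts, Fkbp5, Tent5b, Dlk2 and Ankrd44 were raised less, of which Tent5b, Dlk2 and Ankrd44 are named after their values were seen. The differences were −1.51 for Fkbp5, −2.0 for Tent5b and −0.87 for Dlk2 (−1.69, −2.05 and −1.16 without the GRwt/wt vehicle library that stood apart). Without that library Ptx3 was raised less too, by −0.71 ± 0.15 (adjusted p = 0.00287).

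**Figure D5:**
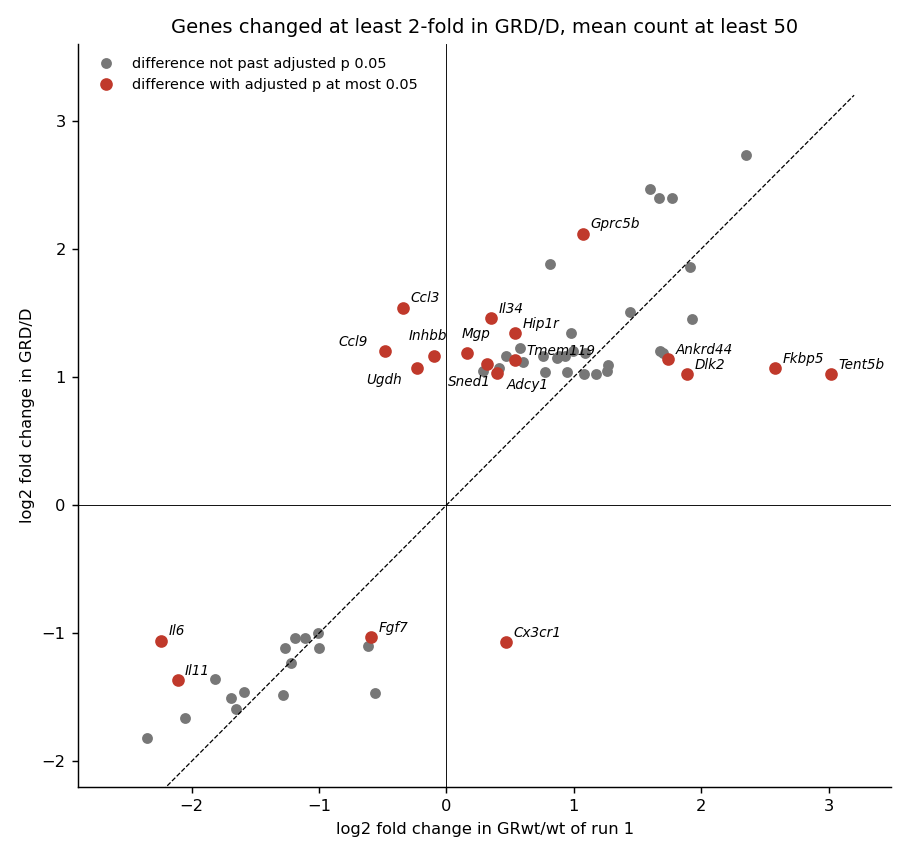
Log2 fold changes of Dex against vehicle in GRD/D (vertical axis) and in GRwt/wt of run 1 (horizontal axis) for the 62 genes changed at least 2-fold in GRD/D with a mean of at least 50 counts, with the line of equal change dashed. Red points with names are the 19 genes whose responses differed (adjusted p-value up to 0.05). Inhbb, Ugdh, Ccl3, Ccl9 and Mgp lie near or left of 0 on the horizontal axis, where Ccl3 and Ccl9 would be at 0.30 and 0.26 without GRwt/wt vehicle replicate 2, and Fkbp5 and Tent5b lie far to the right of the line.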

How the data were processed

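The deposited table holds raw read counts per gene for 36 libraries. Per the labels and the study's methods, the authors made TruSeq libraries for a NextSeq, aligned the reads to mm10 with HISAT2 2.1.0 and counted those with a unique position by featureCounts 2.0.0. The annotation and strand setting are not given in the sources used here, so reads shared by near-identical or overlapping genes, antisense partners included, cannot be told apart. The counts are not normalized. Of 55487 genes, 55141 had a symbol, 22903 had 0 counts in every library and 15489 passed filterByExpr. The study's lower Dex dose was not analysed here.

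Groups came from the labels. Counts were scaled by TMM and tested with edgeR 4.0.16 (limma 3.58.1, R 4.3.3), quasi-likelihood, over all 36 libraries, in a model with 10 terms, 1 for each genotype with each treatment, plus the run. Differences between genotypes, and the responses of GRwt/wt and GRko/ko, came from a model of 12 groups that keeps the runs apart. P-values were adjusted by Benjamini-Hochberg over all genes tested. Approximate standard errors were taken from the size of the log2 fold change over the root of the F statistic. The biological coefficient of variation was 0.0564. P-values measure the spread between these libraries. Counting depth limits genes with few counts, and no library of GRD/D matched another within sampling noise.

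Genes named in the text are the 15 raised and the 15 lowered most among 2-fold genes with a mean of at least 50 counts and no overlap between treatments, 10 glucocorticoid targets, up to 4 members of each list with the smallest p-values and any member whose role a sentence needs, the 5 with the smallest p-values of the difference from GRko/ko, and the 5 raised more and 5 lowered more than in GRwt/wt. A gene under this rule is not reported here. The members and lists were chosen with earlier results of these data known. Lists are described by counts and medians. Alternatives were DESeq2 1.42.0, its size factors, 2 other filters on low counts, a replicate block, run 1 only, GRD/D only, all GRwt/wt libraries, and each library left out in turn. The model of 12 groups for the GRD/D response, and GRwt/wt without vehicle replicate 2, were added after the data were seen. The fit was tested on simulated data.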

Additional observations from a re-analysis of the deposited data

Results flagged for a closer look

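Of the 139 named genes, 45 had a Dex response in GRD/D that differed from GRwt/wt of run 1 in the edgeR interaction test, and 17 of them differed by at least 1 on the log2 scale. The values below are GRD/D minus GRwt/wt on the log2 scale, from 3 vehicle and 3 Dex libraries per genotype. Of the glucocorticoid targets and related genes, the response was lower in GRD/D for Mt2 (−2.63), Pdk4 (−1.85), Mt1 (−1.60), Fkbp5 (−1.51), Adamts1 (−1.43), Tsc22d3 (−1.32) and Fabp4 (−1.02). Zbtb16 had a fitted difference of −8.60, which rests on vehicle libraries of GRwt/wt at 0 counts and is no bound.

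The response was higher in GRD/D for Ccl3 (1.88), Ugdh (1.30), Inhbb (1.26), Il34 (1.11), Gprc5b (1.04) and Mgp (1.03). For Il6, which fell in both genotypes, the difference was 1.18, a smaller fall in GRD/D. H2-Aa (−3.47) and Cx3cr1 (−1.54) were lower in GRD/D and had positive log2 fold changes, 1.03 and 0.47, in GRwt/wt of run 1. In GRwt/wt of run 2 the log2 fold changes were 0.38 for H2-Aa and −1.62 for Cx3cr1. Without GRwt/wt vehicle replicate 2 the differences were 1.25 for Ccl3, 0.79 for Il34, 0.63 for Gprc5b and 0.86 for Mgp, and those of Ccl3 and Il34 no longer passed (adjusted p = 0.231 and 0.126). Ccl3, Cx3cr1 and H2-Aa are made by leukocytes, the 12 macrophage markers of the GRD/D libraries summed to 715.6 to 780.4 CPM with vehicle and 720.0 to 860.3 CPM with Dex, and their part in these 3 results was not tested.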

How the results depend on the processing

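With at least 10 counts in every GRD/D library 55 genes were raised and 24 lowered at least 2-fold, against 95 and 50, because fewer genes were tested. With the GRD/D libraries only, 398 genes were raised and 306 lowered at the adjusted p-value alone, against 742 and 827, in a fit with fewer libraries. With all 12 GRwt/wt libraries, 1105 responses differed from GRwt/wt, against 509, and the cause was not tested. Leaving out 1 library in turn gave 75 to 95 raised and 39 to 59 lowered 2-fold genes, 489 to 913 raised and 433 to 863 lowered genes at the adjusted p-value alone, and 655 to 1289 and 402 to 572 differences from GRko/ko and GRwt/wt. The counts of 489 and 433 came without Dex replicate 2 of GRD/D, and 540 lowered genes were left without its vehicle replicate 2. DESeq2 gave 86 raised and 38 lowered 2-fold genes and 1034 and 562 differences. Same-numbered Dex and vehicle libraries deviated together with correlations of −0.0418, 0.0161 and 0.0743, so the replicate numbers were not taken to pair libraries. With a replicate block 96 genes were raised and 48 lowered at least 2-fold, 887 raised and 888 lowered at the adjusted p-value alone, and 824 and 469 responses differed from GRko/ko and GRwt/wt. Under the block Tsc22d3, Dusp1 and Mt1 passed (adjusted p = 5.57e-06, 3.88e-05 and 0.00441). The model of 12 groups gave 99 and 53 2-fold genes, and all 145 kept their direction and passed there. Of the 145, 108 did so with the GRD/D libraries only, 111 to 126 without a single GRD/D library, 135 with a replicate block or no filter on low counts, 138 with run 1 only, and 115 with DESeq2, which gave no adjusted p-value for 29. The stricter filter left 79 of them to be tested, and all 79 passed. Of the 139 named genes 134 passed, and 27 lost the call with the GRD/D libraries only, 23 without Dex replicate 2, 19 without Dex replicate 3 and 16 without vehicle replicate 2. In all, 32 lost it without at least 1 single GRD/D library, of which 3, Ccr2, Cx3cr1 and H2-Aa, had changed at least 2-fold. No named gene reversed its direction under these alternatives where it was called.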
